A study of Mus musculus with 6 samples.

Results

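Genes for breaking down heme and for carrying, storing and exporting iron were described in cancer-associated fibroblasts treated with decitabine. All probes were taken whose target name in the intensity table was HMOX1, HMOX2, FTL1, FTH1, TRF, TFRC, SLC40A1 or SLC11A2 (Hmox1, Hmox2, Ftl1, Fth1, Trf, Tfrc, Slc40a1 and Slc11a2 in mouse spelling). That gave 8 of 28711 target names and 13 of 45281 probes. The genes were chosen by their function and with their intensities on the DAC and untreated arrays already known, so the difference between the groups is given for them as a description, without a test.

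The study measured RNA with Illumina bead arrays, which read each transcript with short probes on many beads. There were 3 samples exposed to decitabine (5-aza-dC, abbreviated DAC) at 2 micromolar over 48 hours and 3 untreated samples, each called a plate and numbered 1 to 3 in its group. Decitabine blocks the enzymes that copy DNA methylation, which is then lost as cells divide. The fibroblasts of both groups grew out of a tumour of the pancreas, explanted for a short time, in a mouse of the KPC-Brca1 model. Both groups therefore share a tumour, the spread between plates holds no variation between animals, and the labels do not say whether plates were cultured apart. The labels call the control untreated and name no vehicle.

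Heme oxygenases open the heme ring and release iron, carbon monoxide and biliverdin. Iron enters most cells bound to transferrin through the transferrin receptor, leaves the endosome through a divalent metal transporter, is stored inside ferritin shells of heavy and light chains, and leaves the cell through ferroportin. Much of this is controlled after transcription, since iron regulatory proteins bind the messages of ferritin, ferroportin and the transferrin receptor; an array reads message level alone. In fibroblasts Hmox1 is best known as a gene switched on by oxidants and heme through the factor NRF2 and held down by the repressor BACH1.

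Between 16205 and 16528 probes were detected on the DAC arrays and between 16254 and 17180 on the untreated arrays (detection p under 0.01). Arrays of the same group correlated at 0.993 to 0.996 across probes. Of 15 fibroblast markers 14 passed the detection filter, while 7 of 7 endothelial and 7 of 7 erythroid markers were detected on no array. Of the 14, 3 fell and 1 rose with DAC at a limma adjusted p under 0.05, 28.6% against 29.5% of all genes. Lum, Col6a1 and Dcn were 1.67-fold, 1.30-fold and 1.21-fold lower, and S100a4 was 1.78-fold higher. Of 12 epithelial and acinar markers 6 were detected on no array (Epcam, Cdh1, Cldn4, Cpa1, Ctrb1 and Prss2) and 6 were tested (Krt19, Cela1, Krt18, Cldn7, Muc1 and Krt8). Of those 6, the keratin gene Krt19 fell 2.30-fold to 7.56 ± 0.18 with DAC, against 8.76 ± 0.27 untreated (SD, n = 3 each, limma adjusted p = 9.8e-06), and the elastase gene Cela1 rose 1.42-fold (limma adjusted p = 0.00184). The part of such cells in the values of the 8 genes was not tested. Across the whole table, 29.5% of 11518 genes passed an adjusted p under 0.05 (limma, Benjamini-Hochberg), 14.8% higher and 14.6% lower with DAC. In 42.8% of genes the plates of the DAC and untreated groups did not overlap.

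Of the 8 genes, Hmox1 and Trf were lower with DAC by nearly 3-fold, Tfrc was slightly lower, and Ftl1 and Slc40a1 were 1.56-fold and 1.67-fold higher. In these 5 the groups did not overlap. The genes were picked with this contrast in view, so that count beside the background of 42.8% is given without a reading. Each of the 8 had a probe detected on all 6 arrays, so none passed the detection filter through a single group. In bulk RNA, fewer cells of a type and less RNA per cell cannot be told apart.

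**Figure D1:**
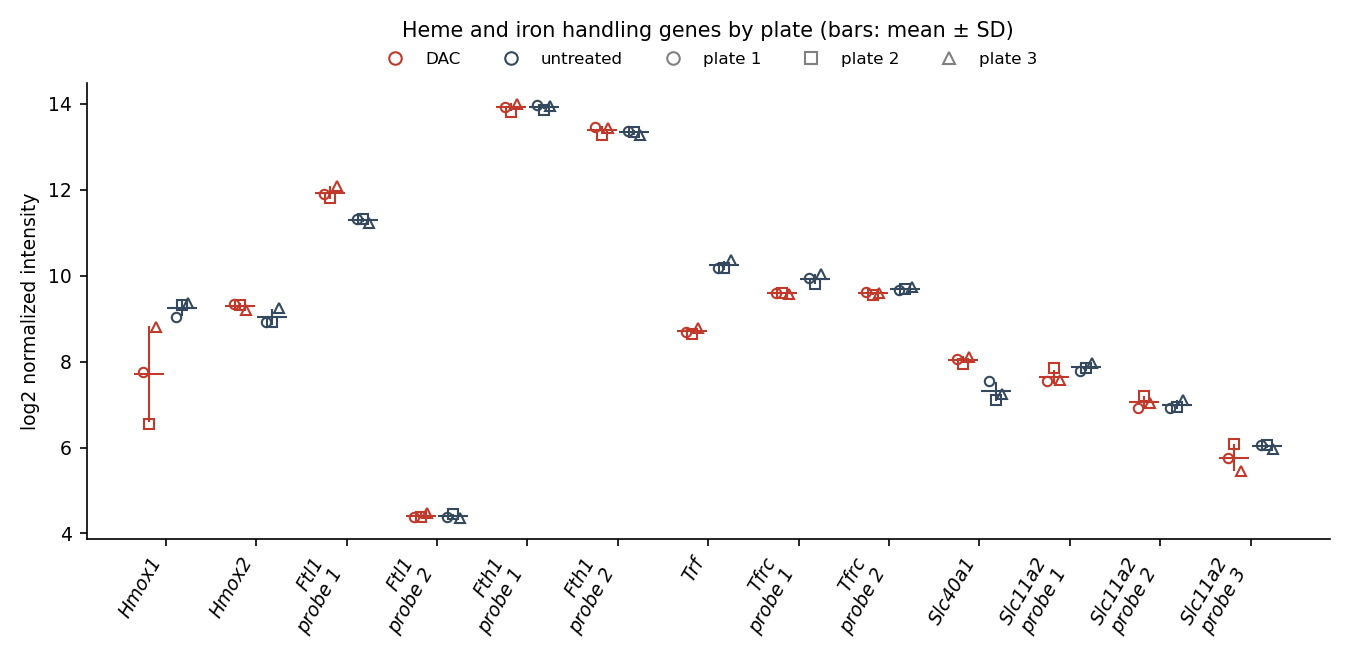
Log2 normalized intensity (vertical axis) of the 13 probes of the 8 genes (horizontal axis), with DAC plates in red left of untreated plates in blue, a symbol for each plate, and bars for the mean ± SD of 3 plates. Trf and Hmox1 lie lower with DAC, Ftl1 and Slc40a1 higher, and the 3 DAC plates of Hmox1 are spread from 6.56 to 8.80.

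Hmox1, which encodes the inducible heme oxygenase, had normalized log2 intensities of 7.76, 6.56 and 8.80 on DAC plates 1, 2 and 3, against 9.03, 9.33 and 9.37 on the untreated plates. Every DAC plate lay below every untreated plate, but the highest DAC plate came close to the lowest untreated one. The mean was 7.71 ± 1.12 with DAC and 9.24 ± 0.18 untreated (SD, n = 3 each), a log2 difference of -1.54 or 2.90-fold lower. Set against the untreated mean, DAC plate 2 was 6.44-fold lower, plate 1 was 2.79-fold lower and plate 3 was 1.36-fold lower. Plate 2 weighs heavily in the mean: without it the log2 difference was -0.96, and without plate 3 it was -2.08.

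The spread between DAC plates was already there before normalization, when the Hmox1 probe read 209.7 ± 10.3, 113.3 ± 6.06 and 457.9 ± 18.2 on the DAC plates, and 576.8 ± 22.2, 685.8 ± 23.1 and 698.2 ± 25.4 on the untreated plates (intensity ± bead standard error). Between 28 and 45 beads stood behind each value, and the bead error was 3.37% to 5.35% of the signal, which leaves out variation of culture, labelling and hybridization. DAC plate 3 was thus 4.04 times as bright as DAC plate 2 for this probe, and DAC plate 1 was 1.85 times as bright. On DAC plate 2, 16443 probes were detected, between the numbers of the other DAC plates. Its median correlation with the arrays of its own group, 0.9934, was the lowest of the 6 arrays. The other arrays had 0.9943 to 0.9950. The cause of the spread of Hmox1 was not tested.

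**Figure D2:**
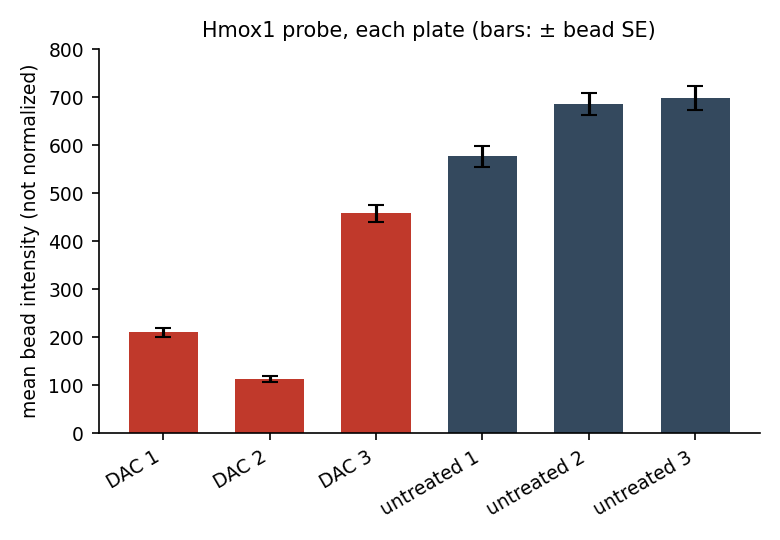
Mean bead intensity of the Hmox1 probe before normalization (vertical axis, linear) on each plate (horizontal axis), with DAC plates in red, untreated plates in blue and bars for ± the bead standard error. The DAC plates read 209.7, 113.3 and 457.9, and the untreated plates between 576.8 and 698.2.

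Among 11518 genes tested, Hmox1 had the largest SD over the DAC plates, 1.12 on the log2 scale, where the median gene had 0.12 and the next gene 0.71. On the untreated plates its SD of 0.18 ranked 2097th, and the largest SD of any gene there was 0.62. Hmox1 kept the first rank on the DAC plates when each DAC plate was left out in turn, with an SD of 0.73 to 1.59. It also kept that rank with another offset, without background correction, without between-array normalization and with 75th percentile scaling. The other 7 genes had SDs of 0.01 to 0.16 over the DAC plates, so no other heme or iron gene among the 8 shared this spread.

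**Figure D3:**
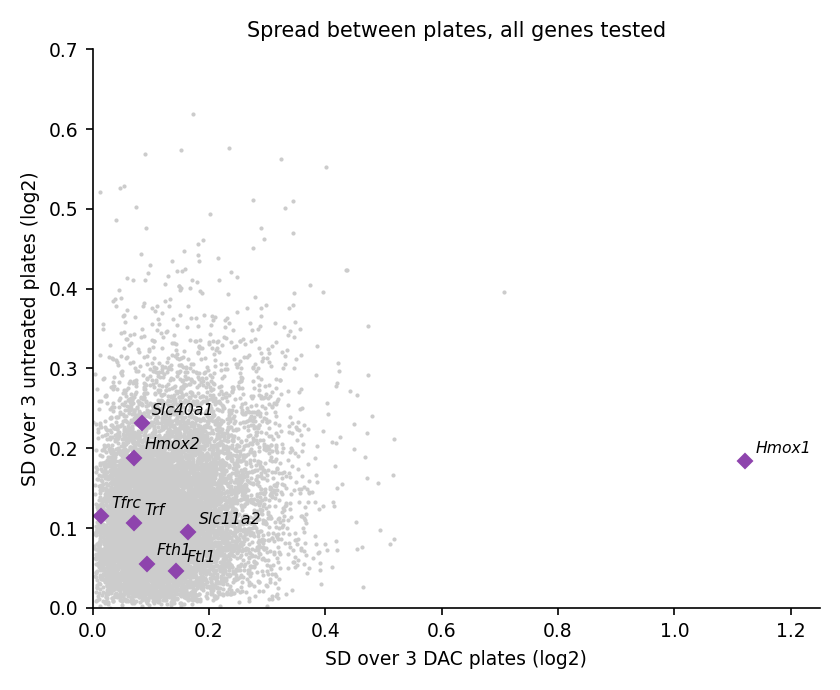
SD over the 3 DAC plates (horizontal axis, log2) against SD over the 3 untreated plates (vertical axis, log2) for the 11518 genes tested (grey points), with the 8 heme and iron genes as purple diamonds. Hmox1 lies alone at 1.12 on the horizontal axis, while the other 7 genes lie within the cloud.

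Genes were ranked by how closely their values followed those of Hmox1. Since Hmox1 had the largest SD over the DAC plates, a smaller range among those plates was fixed in advance for every other gene. Over the 6 arrays, 181 of 10393 genes detected on all arrays had a Pearson r above 0.9 with Hmox1, a description of 6 points that share their arrays. That r also takes in the difference between the groups. The 6 highest, passing over predicted or unclear names, were Tab2 (r = 0.99), Plk4, Trim33, Gfpt1, Fchsd2 and Glt8d1 (r = 0.97 to 0.98 for these 5). Over the 6 arrays they spanned 0.19 to 0.52 on the log2 scale, against 2.81 for Hmox1. Only 3 of these 6 stayed among the 100 highest without between-array normalization, and 3 with 75th percentile scaling. For deviations from the group means alone, the 6 highest were Fam3c, Smim15, Rnf113a1, Atp6v0b, Ociad1 and Mcf2l (r = 0.99 to 1.00). These moved over 0.31 to 0.45 among the DAC plates, against 2.24 for Hmox1. Over the untreated plates Hmox1 ranged over 0.34, so the r of deviations rests mostly on the 3 DAC plates.

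Hmox2, the constitutive heme oxygenase, read 9.35, 9.31 and 9.21 on the DAC plates and 8.93, 8.94 and 9.26 on the untreated plates. The groups overlapped because the third untreated plate reached the DAC level. The means were 9.29 ± 0.07 with DAC and 9.04 ± 0.19 untreated, a log2 difference of 0.25, which ran from 0.14 to 0.36 over the alternatives. The 2 heme oxygenase genes thus differed in the sign of this difference and in the spread over the DAC plates.

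The ferritin chains differed from each other. Ftl1, the light chain, which helps lay down the iron core, read 11.91, 11.81 and 12.09 on the DAC plates and 11.32, 11.32 and 11.24 on the untreated plates. All DAC plates were above all untreated plates, with means of 11.94 ± 0.14 and 11.29 ± 0.05, a log2 difference of 0.64 or 1.56-fold higher. A further Ftl1 probe was detected on no array (detection p of 0.135 to 0.346), and its position in the transcript is not given in the sources used here. Copies of ferritin light chain genes are near-identical in the mouse, so the copy behind the Ftl1 signal is uncertain.

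Fth1, the heavy chain, which carries the enzyme site that oxidizes ferrous iron, read 13.94, 13.82 and 14.01 on the DAC plates and 13.97, 13.87 and 13.95 on the untreated plates with its brighter probe. The other Fth1 probe read 13.46, 13.29 and 13.45 with DAC and 13.38, 13.36 and 13.28 untreated. Both pairs of groups overlapped, and the log2 differences were -0.01 and 0.06. Over the alternatives the difference ran from -0.05 to 0.18 and had the other sign under 6 of 17 settings, the highest value coming with 75th percentile scaling.

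DNA methylation in mammals sits mainly on CG dinucleotides, and the 250 bases before the annotated start of the ferritin pair, of which Ftl1 alone was higher with DAC without overlap, are shown with each CG in capitals. The sequences are RefSeq's, build GRCm38.p6, printed 5′ to 3′ on the gene's strand. Ftl1 has a single window, and for Fth1 the window of its downstream annotated start is shown.
Ftl1, chr7:45459887-45460136, minus strand: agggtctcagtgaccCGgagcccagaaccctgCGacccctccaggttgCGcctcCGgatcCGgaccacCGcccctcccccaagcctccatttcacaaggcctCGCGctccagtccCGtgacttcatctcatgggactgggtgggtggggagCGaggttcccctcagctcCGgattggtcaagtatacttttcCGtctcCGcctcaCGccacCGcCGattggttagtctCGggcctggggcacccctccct
Fth1, chr19:9982396-9982645, plus strand: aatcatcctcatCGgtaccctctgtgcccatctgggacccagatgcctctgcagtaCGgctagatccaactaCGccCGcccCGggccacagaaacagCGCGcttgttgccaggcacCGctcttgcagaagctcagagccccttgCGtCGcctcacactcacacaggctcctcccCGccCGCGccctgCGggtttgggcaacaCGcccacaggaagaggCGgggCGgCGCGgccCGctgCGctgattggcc
The Ftl1 stretch held 17 CG and the Fth1 stretch 21, against a median of 6 over 32851 such windows, and 76.5% and 83.7% of the windows held fewer. The window of the upstream Fth1 start held 3. Tfrc windows held 25 and 23, and Hmox2 windows 0, 7 and 21. Methylation was not measured in this series. Windows were found for 4 of the 8 genes, and those of Hmox1, Trf, Slc40a1 and Slc11a2 are not shown. The core of the site bound by NRF2 and BACH1, TGACNNNGC, was searched on both strands of the 300 bases from 250 before to 50 after each start. It was in 0 of the 8 windows of the 4 genes and in 12.4% of all windows, which says only that these letters are not in these stretches.

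Trf encodes transferrin, the iron carrier of the blood, which some cultured cells also secrete. Its probe read 8.70, 8.65 and 8.79 on the DAC plates and 10.18, 10.19 and 10.37 on the untreated plates. The groups were far apart and each was tight, with means of 8.71 ± 0.07 and 10.24 ± 0.11, a log2 difference of -1.53 or 2.89-fold lower. The size of the difference is that of Hmox1, but the SD with DAC was 0.07 in place of 1.12. Over all alternatives it stayed between -1.64 and -1.45.

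Tfrc, the receptor that takes in iron-loaded transferrin, was read by a pair of probes that differed in size. The brighter read 9.59, 9.61 and 9.58 on the DAC plates and 9.94, 9.81 and 10.04 on the untreated plates, 1.26-fold lower with DAC. The other read 9.63, 9.56 and 9.60 with DAC and 9.68, 9.69 and 9.73 untreated, 1.07-fold lower. In both the DAC plates lay below the untreated plates, and averaging the probes gave a log2 difference of -0.22 in place of -0.33.

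Slc11a2, the transporter that moves ferrous iron out of the endosome, showed no shared direction over its 3 probes. The brightest read 7.55, 7.84 and 7.56 on the DAC plates and 7.78, 7.86 and 7.97 on the untreated plates, a log2 difference of -0.22. The second read 6.93, 7.20 and 7.04 with DAC and 6.92, 6.95 and 7.11 untreated, a difference of 0.06. The third read 5.76, 6.08 and 5.46 with DAC and 6.05, 6.06 and 5.98 untreated, a difference of -0.26. In all 3 probes the groups overlapped, and DAC plate 2 was the highest of the DAC plates.

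Slc40a1 encodes ferroportin, the iron exporter. Its probe read 8.07, 7.96 and 8.12 on the DAC plates and 7.56, 7.11 and 7.25 on the untreated plates. The groups did not overlap, with means of 8.05 ± 0.08 and 7.31 ± 0.23, a log2 difference of 0.74 or 1.67-fold higher. Over the alternatives the difference ran from 0.58 to 0.87. Ferroportin is also a gene of macrophages. Of a list of 17 leukocyte markers 8 were tested, and 6 rose and 0 fell with DAC (7 and 0 at an unadjusted p under 0.05, limma). Over all genes, 14.8% rose. Cd53 and Csf1r were detected on 3 of 3 DAC arrays and 0 of 3 untreated arrays. They passed the filter through the DAC group alone, so their direction was fixed by the filter. Among markers detected on all 6 arrays, 4 of 6 rose and 0 fell. The summed normalized intensity of the 8 tested markers was 1373 to 1403 on the DAC arrays and 812 to 874 on the untreated arrays. Cd53 and Csf1r are part of that sum, so it is not independent of the filter. Its brightest probes were those of the lysozyme genes Lyz1 and Lyz2, 1.72-fold and 1.61-fold higher with DAC. Cd3e and Cd14 did not pass, and Cd14 was slightly lower (log2 change -0.09). The defining markers Ptprc, Itgam, Adgre1, Aif1 and Tyrobp were detected on no array. The part of these cells in the Slc40a1 value was not tested.

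Other genes of heme and iron handling were taken from 6 lists of roles that held none of the 8 genes, and these were tested. Of 66 genes, 47 passed the detection filter, and 8 rose and 8 fell with DAC, 34.0% of those tested against 29.5% of all genes. That share is near the background. Their median log2 change was -0.01, against 0.00 for all genes. By list, the share called ran from 14.3% of 7 genes (heme synthesis) to 50% of 8 (iron uptake) and of 4 (iron export). These shares of short lists are given without a reading. The rises depended on the scaling: without between-array normalization 0 of the 47 rose (limma, 5 at an unadjusted p under 0.05) and 12 fell, while the median of all genes lay at -0.11. The numbers that follow are therefore relative to quantile-normalized arrays. The 8 rises were 4 without DAC plate 3, and 5 without DAC plate 1 or without any of the 3 untreated plates in turn.

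**Figure D4:**
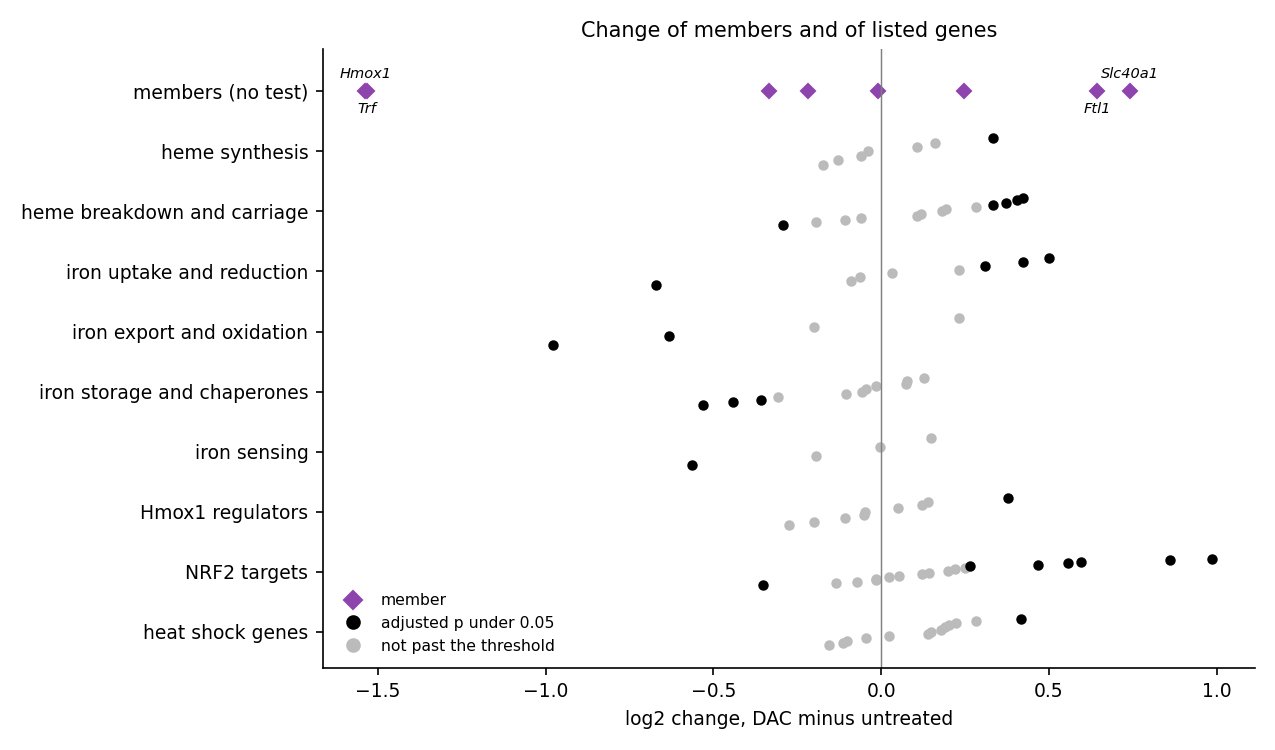
Log2 change, DAC minus untreated (horizontal axis), of the 8 heme and iron genes (purple diamonds, not tested) and of the tested genes of each list (rows), with black points past an adjusted p under 0.05 and grey points not past it. Hmox1 and Trf lie further left than any gene plotted from the lists, the lowest of which is Cp at -0.98.

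Both biliverdin reductase genes, which act on the product of heme oxygenase, rose with DAC. Blvrb, a biliverdin and flavin reductase, read 10.25, 10.64 and 10.31 on the DAC plates and 9.87, 10.06 and 10.01 on the untreated plates (1.34-fold higher, limma adjusted p = 0.0136). Blvra, the main biliverdin reductase, read 10.17, 9.98 and 10.23 with DAC and 9.81, 9.91 and 9.66 untreated (1.26-fold higher, limma adjusted p = 0.0303). In neither gene did the groups overlap, but the Blvra call ended under 6 of 17 alternatives and the Blvrb call under 4. Slc48a1, which brings heme out of lysosomes, rose 1.29-fold (limma adjusted p = 0.00967), a call that ended under 2 of 17 alternatives. Lrp1, a scavenger receptor that also takes up heme bound to hemopexin, rose 1.32-fold with overlapping groups (limma adjusted p = 0.0317). Lrp1 is named outside the rule for naming, to complete the count. Pgrmc2, a heme chaperone, fell 1.23-fold (limma adjusted p = 0.0378), a call that ended under 6 of 17 alternatives. These are 4 rises and 1 fall among 13 tested, 38.5% called against 29.5% of all genes. Without the filter on dim probes, 1 of the 13 rose and 1 fell.

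Of the heme synthesis genes, 1 of 7 tested rose and 0 fell (1 and 0 also at an unadjusted p under 0.05). That was Alas1, the rate-limiting enzyme outside red cells, which read 10.98, 10.77 and 10.83 on the DAC plates and 10.57, 10.44 and 10.57 on the untreated plates (1.26-fold higher, limma adjusted p = 0.0224). The groups did not overlap, though the call ended under 4 of 17 alternatives. The other 6 tested, Fech, Urod, Ppox, Uros, Cpox and Alad, had log2 changes of -0.17 to 0.16 and did not pass.

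Among genes of iron uptake and reduction, 3 of 8 tested rose and 1 fell. Steap1 and Steap2, of a family of membrane metal reductases, rose 1.41-fold and 1.24-fold (limma adjusted p = 0.00603 and 0.026), and the calls ended under 2 and 6 of 17 alternatives. The zinc and iron transporter genes Slc39a14 and Slc39a8 moved apart. Slc39a14, detected on 3 of 3 DAC arrays and 2 of 3 untreated arrays, read 5.29, 5.35 and 5.56 with DAC and 5.06, 5.02 and 4.84 untreated (limma adjusted p = 0.00865). Slc39a8 read 5.67, 5.13 and 5.19 with DAC and 6.08, 5.72 and 6.21 untreated, 1.59-fold lower (limma adjusted p = 0.0035). Both are dim probes, and each call ended under at least 1 alternative.

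Of the 47 heme and iron list genes tested, Cp had the largest fall. It encodes ceruloplasmin, the copper oxidase that works with ferroportin to load iron onto transferrin. Its brightest probe read 6.94, 6.76 and 6.74 on the DAC plates and 7.78, 7.83 and 7.76 on the untreated plates. The groups lay far apart, 1.97-fold lower with DAC (limma adjusted p = 3.49e-06), and the call held under all 17 alternatives (log2 -1.15 to -0.71). Neo1, a receptor that also binds hemojuvelin, fell 1.55-fold (limma adjusted p = 0.000309). A dimmer Neo1 probe overlapped between the groups, at 6.07 ± 0.03 with DAC and 6.12 ± 0.15 untreated (SD, n = 3 each). Further dimmer Neo1 probes that passed the filter were 1.36-fold and 1.26-fold lower without overlap. Cp and Neo1 were 2 of 4 tested, and 0 rose (1 at an unadjusted p under 0.05). Ceruloplasmin and transferrin were thus both lower with DAC while ferroportin was higher. Hamp, the hepcidin gene, was detected on no array.

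In the storage and chaperone list, 3 of 11 tested fell and 0 rose (4 and 0 at an unadjusted p under 0.05). Ncoa4, which delivers ferritin to the lysosome for breakdown, read 8.25, 8.08 and 8.34 on the DAC plates and 8.83, 8.56 and 8.88 on the untreated plates. The groups did not overlap (1.45-fold lower, limma adjusted p = 0.00257), and the call held under all 17 alternatives. A dimmer Ncoa4 probe was also lower but overlapped between the groups, at 5.44 ± 0.49 with DAC and 6.25 ± 0.56 untreated (SD, n = 3 each). Another was 1.20-fold lower without overlap. Pcbp1 and Pcbp2, RNA-binding proteins that also hand iron to ferritin, fell 1.36-fold and 1.28-fold (limma adjusted p = 0.00448 and 0.0171). With 75th percentile scaling neither call held (limma adjusted p = 0.0801 and 0.271). The Pcbp1 call ended under 1 of 17 alternatives and the Pcbp2 call under 4. The 8 remaining genes, most of them for mitochondrial iron and iron-sulfur clusters, had log2 changes of -0.31 to 0.13.

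Of the iron sensing genes, neither iron regulatory protein gene passed the test and Hif1a did. Aco1, the iron regulatory protein that doubles as an aconitase, read 5.95, 5.85 and 6.08 on the DAC plates and 6.07, 5.79 and 6.04 on the untreated plates, a log2 change of 0.00 (limma adjusted p = 0.983). Ireb2, the other iron regulatory protein, averaged 8.20 ± 0.17 with DAC and 8.39 ± 0.10 untreated with its brighter probe (SD, n = 3 each). Those groups did not overlap, but the log2 change of -0.20 did not pass (limma adjusted p = 0.201). A dimmer Ireb2 probe overlapped between the groups, at 7.71 ± 0.18 with DAC and 7.67 ± 0.19 untreated, a log2 change of 0.05. Of the 4 tested, 1 fell and 0 rose (also 1 and 0 at an unadjusted p under 0.05). That was the hypoxia factor gene Hif1a, 1.48-fold lower (limma adjusted p = 0.00209), a call that held under all 17 alternatives.

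The transcripts of factors that act on Hmox1 differed less than Hmox1 did. Of 9 tested, 1 rose and 0 fell (1 and 1 at an unadjusted p under 0.05). The share called was 11.1%, against 29.5% of all genes. Nfe2l2, which encodes NRF2, read 8.07, 7.58 and 7.84 on the DAC plates and 7.79, 7.77 and 8.08 on the untreated plates, with overlapping groups (log2 change -0.05, limma adjusted p = 0.825). Bach1, the repressor, read 7.69, 7.70 and 7.49 with DAC and 7.98, 7.97 and 7.75 untreated. Its groups did not overlap, yet it did not pass (log2 change -0.27, limma adjusted p = 0.0679, range 0.00944 to 0.239 over the alternatives). Maff, a small partner of both factors, rose 1.30-fold with overlapping groups (limma adjusted p = 0.0458), and the call ended under 10 of 17 alternatives. Keap1 and Cul3, which mark NRF2 for breakdown, and Hsf1, Nfe2l1, Atf4 and Mafg had log2 changes of -0.20 to 0.14 and did not pass.

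Of other genes that NRF2 is known to switch on, 18 were tested, and 6 rose and 1 fell with DAC (limma, 8 and 1 at an unadjusted p under 0.05). That is 38.9% called against 29.5% of all genes, with a median log2 change of 0.17 against 0.00 for all genes. The counts were 5 and 1 without between-array normalization and 8 and 1 with 75th percentile scaling, settings applied to this list after the data were seen. Nqo1, a quinone reductase, read 8.67, 8.56 and 8.55 on the DAC plates and 7.86, 7.65 and 7.70 on the untreated plates (1.81-fold higher, limma adjusted p = 1.4e-05). Cbr3, a carbonyl reductase, rose 1.98-fold and Ephx1, an epoxide hydrolase, 1.51-fold (limma adjusted p = 3.16e-06 and 0.000291), and these 3 calls held under all 17 alternatives. Slc7a11, the cystine transporter, fell 1.28-fold (limma adjusted p = 0.0282), a call that ended under 6 of 17 alternatives. The 11 that did not pass, among them Gclm, Prdx1, G6pdx and Tkt, had log2 changes of -0.13 to 0.25. Gclc, Txnrd1, Gpx2 and Aox1 were detected on no array. The SD over DAC plates was at most 0.20 in this list, that of Slc7a11, against 1.12 for Hmox1.

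Heat shock genes, of which Hmox1 is also counted as a member under the name Hsp32, were tested beside it. Of 13, 1 rose and 0 fell (2 and 0 at an unadjusted p under 0.05), 7.69% called against 29.5% of all genes. Hsph1, a large heat shock protein, read 9.84, 9.49 and 9.66 on the DAC plates and 9.20, 9.28 and 9.26 on the untreated plates (1.34-fold higher, limma adjusted p = 0.00897). The Hsph1 call ended under 1 of 17 alternatives. The largest SD over DAC plates in this list was 0.42, that of Hspa1b, named after its values were seen, which read 6.21, 5.39 and 5.91 with DAC and 6.01, 5.90 and 6.07 untreated. Its lowest DAC plate was plate 2, as for Hmox1, but its highest was plate 1.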

How the data were processed

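RNA was measured on 6 Illumina bead arrays, 3 of DAC and 3 of untreated plates. Per the file headers, the authors' deposited table gives for each probe a mean bead intensity, which is positive and not normalized, a detection p-value, the bead standard error and the number of beads. Probes had a median of 43 to 44 beads. For scanner software and annotation build, the sources used here give nothing. A further deposited table with other probe identifiers (6 columns) was not used, since its probes have no names here. Total RNA was taken with Trizol and labelled with biotin, per the labels.

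Columns were assigned by the sample names in the labels, and replicates lettered A to C there are numbered 1 to 3. The background step was limma's normexp (limma 3.58.1, R 4.3.3), which took its parameters from the detection p-values and added an offset of 16. Quantile normalization and log2 followed. A probe was kept if 3 or more arrays had a detection p under 0.01 (16883 probes), and the brightest stood for its gene (11518). Names were updated through a table of assembly GRCm38.p6, which 36674 probes (81.0%) matched. DAC and untreated arrays were compared with lmFit and eBayes, with Benjamini-Hochberg adjustment over the 11518 genes. Nothing in the labels ties plates to separate cultures. A p-value sets the group difference against plate-to-plate spread alone, which limma moderates over all genes. That spread may be technical, and the number of arrays limits the precision. At most 0.83% of probes read the same on any pair of arrays. The fit was tested on simulated intensities.

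The 8 genes and all lists were chosen with earlier results of these data known. Named were the 8 genes, up to 3 called genes per list and direction with the smallest p, all tested Hmox1 regulators, Blvra, Blvrb, Aco1, Ireb2, and the 6 genes most like Hmox1 by each measure. A probe reads a part of a transcript, and levels are not compared between probes. Alternatives were the offset, background correction, scaling, detection filter, choice of probe, variance model, replicate block and leaving out each array.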

Additional observations from a re-analysis of the deposited data

How the results depend on the processing

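The lower level of Hmox1 kept its sign under all 17 alternatives, with log2 differences of -1.68 to -1.35 over changed settings and -2.08 to -0.96 when an array was left out. The SD of Hmox1 over the DAC plates was 0.94 to 1.14 over changed settings and 0.73 to 1.59 without a DAC plate. Without between-array normalization, 977 genes were higher and 2711 lower, in place of 1708 and 1686, so that the higher share of all calls was 26.5%, against 50.3%, and 0 heme and iron list genes were higher (limma, 5 at an unadjusted p under 0.05) in place of 8. With 75th percentile scaling, that share was 63.3% (2335 higher and 1352 lower), and 5 heme and iron list genes were lower in place of 8. The cause of these shifts was not tested. Without the filter on dim probes, 28711 genes were tested. Leaving out an array gave 10 to 15 heme and iron list genes called in place of 16, with 4 to 7 higher and 6 to 8 lower. Of the 6 genes with the highest r to Hmox1, 3 were among the 100 highest without between-array normalization and 3 with 75th percentile scaling. That count and the SD without a DAC plate were chosen after the data were seen. Over 31 other named genes and their alternatives, 466 of 526 values kept direction and side of the threshold, 56 lost the call, 4 gained it and 0 of the called genes changed sign.

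The replicate number as a block gave 3983 called genes in place of 3394 and 17 heme and iron list genes in place of 16. Deviations from the group means correlated at 0.32, 0.28 and -0.03 for plates numbered 1, 2 and 3 in both groups. DAC plates 1 and 2 correlated best with the untreated plate of their own number, and DAC plate 3 with untreated plate 1. With 3 plates per group, these values cannot decide whether the numbers pair the plates.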
